A study of Homo sapiens with 8 samples.

Results

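The p53 circuit was followed through 7 genes: MDM2, MDM4, CDKN1A, PPM1D, USP7, TP53BP1 and USP28. They were chosen by symbol, as the genes that appear in the sgRNA names of the count table, out of 18905 genes with an sgRNA there. All 7 passed the filter on low counts and were among the 18903 genes tested. The data come from a genome-wide CRISPRi growth screen in K562, a human chronic myeloid leukemia line. In CRISPRi, an sgRNA carries catalytically dead Cas9 fused to the KRAB repressor to a promoter, and an sgRNA is lost from the population when silencing its gene slows growth. All cells carried dCas9-KRAB and stably expressed uL16, a protein of the large ribosomal subunit encoded by RPL10, either as wild type or as a mutant whose change the labels do not name. Each line was sequenced at day 0 and day 9 in 2 replicates, which gave 8 libraries, and the labels do not say whether the replicates were separate cultures. The p-values below therefore measure only the spread between these libraries, which may be technical.

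The tumour suppressor p53 is a transcription factor that stops the cell cycle or starts apoptosis when DNA is damaged or ribosome assembly fails. MDM2 and its partner MDM4 hold p53 down, and free RPL5 and RPL11 relieve that hold when ribosome assembly is disturbed. K562 cells are known to lack working p53. In cells with working p53, silencing MDM2 or MDM4 is known to stop growth, and silencing CDKN1A, TP53BP1 or USP28 can favour it. Neither RNA nor protein was measured here, so the state of p53 and the strength of each knockdown could not be read from these data.

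The table lists 70 sgRNAs for the 7 genes, 10 for each. Of these, 34 were at 0 throughout and 36 were counted in some library. An MDM2 sgRNA, with a mean count of 7.375, fell under the minimum mean count of 20, which left 35 sgRNAs, 5 for each gene. The sgRNAs of MDM2, MDM4, CDKN1A, PPM1D, USP7 and USP28 carry the joint tag P1P2 in their names. TP53BP1 has a set tagged P1 and a separate one tagged P2, read here as its first and second promoter. The number in an sgRNA's name is a position in a genome build that the name does not give, so it is used here only as a name and for distances within a gene. No sgRNA of the 7 genes lies within 1 kb of an sgRNA of another gene. Single sgRNA counts of the 7 genes ranged from 66 to 3300, and counts summed per gene from 1352 to 6572.

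Promoter sequences are shown for the 4 genes on which the results below turn, as the 250 bases before a transcription start, 5′ to 3′ on the gene's strand. They come from RefSeq on GRCh38.p14, where all 7 genes matched a total of 12 start windows. TP53BP1 has a single window there. It was not matched to the first-promoter or the second-promoter sgRNAs of the gene, since the build of the sgRNA names is not given. MDM2, on chromosome 12, has start sites 845 bases apart, an upstream one and an internal one in its first intron, and p53 is known to act on the internal one. The 5 MDM2 sgRNAs with enough counts span 388 bases, less than the distance between the starts. Capitals mark a match to the p53 response element, which is its own reverse complement and so covers both strands. Up to 1 mismatch in each half-site was allowed with the core C and G kept, and up to 13 bases between the half-sites. Such a match lies in 550 of 35116 windows of this length (1.57%), and in 2 of the 12 windows of the 7 genes, which are overlapping windows of the internal MDM2 start.
MDM2 upstream start, chr12:68807922-68808171, plus strand: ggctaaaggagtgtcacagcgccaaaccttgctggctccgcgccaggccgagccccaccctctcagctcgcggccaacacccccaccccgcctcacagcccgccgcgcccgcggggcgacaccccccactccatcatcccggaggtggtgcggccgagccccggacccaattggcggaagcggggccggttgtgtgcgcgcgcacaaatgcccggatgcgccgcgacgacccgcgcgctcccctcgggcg
MDM2 internal start, chr12:68808767-68809016, plus strand: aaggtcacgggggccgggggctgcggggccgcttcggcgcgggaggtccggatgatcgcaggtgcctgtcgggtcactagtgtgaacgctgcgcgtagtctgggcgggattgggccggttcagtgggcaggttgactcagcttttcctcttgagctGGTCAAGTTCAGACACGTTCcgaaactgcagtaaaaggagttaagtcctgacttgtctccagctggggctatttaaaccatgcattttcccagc
MDM4, chr1:204516156-204516405, plus strand: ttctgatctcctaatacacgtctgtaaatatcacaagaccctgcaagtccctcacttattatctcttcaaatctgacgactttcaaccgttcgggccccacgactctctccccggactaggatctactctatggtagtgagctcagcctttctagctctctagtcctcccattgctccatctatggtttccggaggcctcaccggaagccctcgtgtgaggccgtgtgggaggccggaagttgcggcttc
PPM1D, chr17:60599943-60600192, plus strand: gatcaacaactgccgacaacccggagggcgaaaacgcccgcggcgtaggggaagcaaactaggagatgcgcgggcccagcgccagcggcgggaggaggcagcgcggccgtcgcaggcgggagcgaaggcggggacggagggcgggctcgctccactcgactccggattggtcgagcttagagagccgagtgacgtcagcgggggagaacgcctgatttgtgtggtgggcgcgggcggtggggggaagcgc
TP53BP1, chr15:43510641-43510890, minus strand: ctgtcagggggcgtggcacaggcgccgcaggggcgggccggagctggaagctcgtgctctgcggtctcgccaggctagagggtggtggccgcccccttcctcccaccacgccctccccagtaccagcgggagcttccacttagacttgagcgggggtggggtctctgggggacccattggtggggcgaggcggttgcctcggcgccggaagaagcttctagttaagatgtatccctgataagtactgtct
The match before the internal MDM2 start begins 94 bases before it. The upstream MDM2 window is 74.4% G and C and the internal one 59.2%, against 52.8% in the MDM4 window, 70.4% in that of PPM1D and 66.4% in that of TP53BP1. These matches describe letters only, and no binding was measured. Sites farther from a start, after it or without the core C and G were not searched for. A window without capitals therefore does not show that the gene lacks a p53 site.

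Library totals ranged from 39233340 to 143585751 counts, and the median count of a kept sgRNA from 331 to 1224. The screen registered losses of K562 dependencies in both lines: GATA1, the erythroid master regulator, had log2 changes of -3.09 in wild-type and -2.66 in mutant cells, and BCR, the 5′ partner of the BCR-ABL1 fusion, of -1.89 and -2.21. Of 6 genes known as dependencies of K562 (GATA1, TAL1, LMO2, GFI1B, BCR and ABL1), 4 fell in wild-type and 5 in mutant cells, which is the only check of the cell type these data allow. TAL1 did not pass in wild-type cells (-0.07), and ABL1 passed in neither line, with changes of 0.09 and 0.08. With edgeR's quasi-likelihood test at an adjusted p of 0.05, 9.56% of all genes were called in wild-type and 9.23% in mutant cells between day 0 and day 9. The median change over all genes was 0.01 in each line. The called fall nearest 0 was -0.25 in wild-type and -0.21 in mutant cells.

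None of the 7 p53 pathway genes was called in either line by this test. Between day 0 and day 9, 0 of 7 passed in wild-type cells and 0 of 7 in mutant cells. At an unadjusted p under 0.05, 1 of 7 passed in wild-type cells (MDM4), where 19.5% of all genes did, and 2 of 7 in mutant cells (MDM4 and TP53BP1), where 17.3% did. DESeq2 called 0 of 7 in wild-type cells and 1 of 7, TP53BP1, in mutant cells. Over the 18903 genes tested, DESeq2 called 2763 in wild-type and 2395 in mutant cells. The median log2 change of the 7 genes was 0.07 in wild-type and 0.05 in mutant cells. Their 95% intervals together ran from -0.34 to 0.53 in wild-type and from -0.46 to 0.54 in mutant cells, so changes of the size of GATA1 or BCR lay outside all of them.

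**Figure D1:**
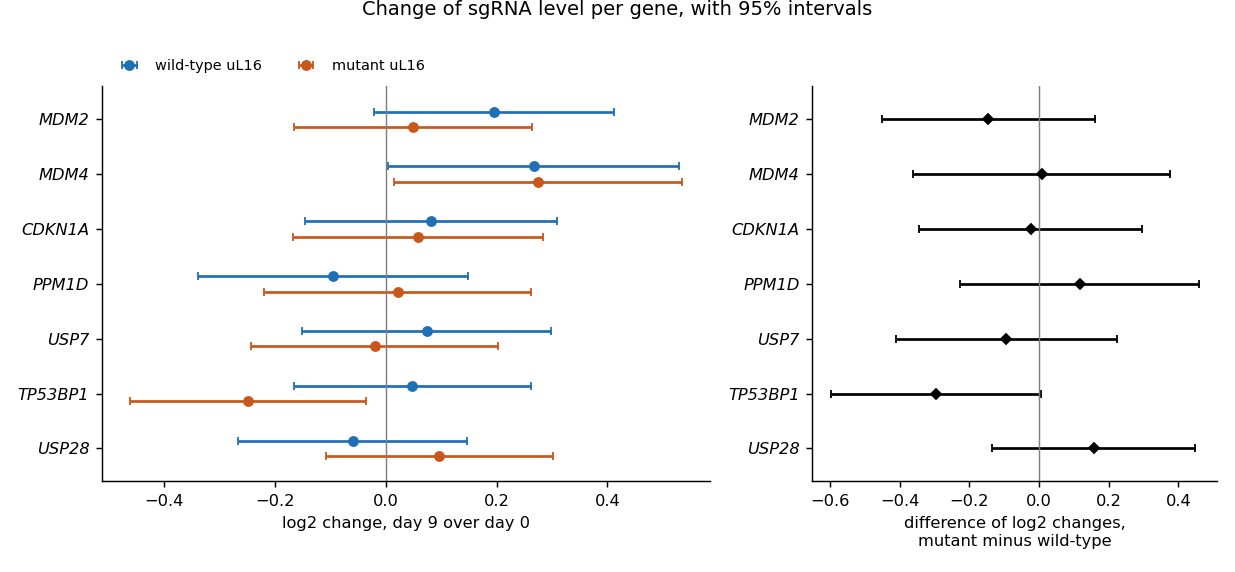
Log2 change of the summed sgRNA counts from day 0 to day 9 in wild-type (blue) and mutant (orange) cells, left, and the difference of these changes, right, for the 7 genes. Points are fitted values from 2 libraries per group and bars 95% intervals. In the left panel the intervals of MDM4 in both lines and of TP53BP1 in mutant cells do not reach 0, and in the right panel all intervals include 0.

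Neither inhibitor of p53 fell by the test. MDM2, the ubiquitin ligase that marks p53 for degradation, stood in the wild-type line at 44.6 and 51.8 CPM (counts scaled to library size, with TMM) at day 0 and at 59.7 and 50.6 CPM at day 9. The mutant line had 51.8 and 50.2 CPM at day 0 and 52.95 and 52.6 at day 9. The wild-type days overlapped, and in mutant cells both day 9 libraries lay just above both day 0 libraries. For separations of this kind, the share over all genes was counted only for MDM4 in both lines and TP53BP1 in mutant cells. The log2 change of MDM2 was 0.19 (SE 0.106, 95% interval -0.02 to 0.41, edgeR adjusted p = 0.328) in wild-type and 0.05 (SE 0.105, -0.17 to 0.26, adjusted p = 0.888) in mutant cells. In order of the group means, MDM2 stood at 48.2 ± 5.07 CPM (SD, n = 2) in wild-type day 0, 51.0 ± 1.12 in mutant day 0, 52.8 ± 0.265 in mutant day 9 and 55.2 ± 6.42 in wild-type day 9, and only the step between the mutant groups was larger than the spread of both neighbours.

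MDM4, the MDM2-related protein that masks the activation domain of p53, was the member with the highest change in both lines. In the wild-type line its sgRNAs stood at 31.8 and 33.5 CPM at day 0 and at 34.4 and 44.2 CPM at day 9. Those of the mutant line stood at 32.3 and 34.4 CPM at day 0 and at 37.6 and 42.96 CPM at day 9. Both day 9 libraries were above both day 0 libraries in each line, a pattern that 7.51% of all genes shared. The log2 change of MDM4 was 0.27 (SE 0.129, 95% interval 0.00 to 0.53) in wild-type cells and 0.28 (SE 0.128, 0.02 to 0.54) in mutant cells, or 1.20-fold and 1.21-fold. With edgeR the adjusted p was 0.244 and 0.246 (unadjusted 0.0462 and 0.0386), so neither passed. All 5 MDM4 sgRNAs were higher at day 9 in both lines, which held for 0.616% of the genes with 5 sgRNAs. Their single changes ran from 0.07 to 0.55 in wild-type and from 0.12 to 0.45 in mutant cells, all within the spread of the control sgRNAs given below. Leaving out each sgRNA in turn kept the change of MDM4 between 0.21 and 0.35 in wild-type and between 0.22 and 0.35 in mutant cells. The size rested more on single day 9 libraries. Without wild-type day 9 replicate 1 the wild-type change was 0.44 with an adjusted p of 0.0313, the only setting run in which MDM4 passed, and without replicate 2 it was 0.07 (adjusted p = 0.828). In mutant cells the change was 0.18 (adjusted p = 0.611) without day 9 replicate 2.

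The second group of regulators acts through phosphate and ubiquitin. PPM1D, the phosphatase WIP1 that p53 induces and that switches p53 signalling off, had 47.8 and 43.0 CPM at wild-type day 0 and 36.2 and 48.8 CPM at wild-type day 9. In the mutant line PPM1D had 54.2 and 47.1 CPM at day 0 and 51.4 CPM in both day 9 libraries. The days overlapped in each line, and the log2 change was -0.09 (95% interval -0.34 to 0.15) in wild-type and 0.02 (-0.22 to 0.26) in mutant cells. At day 9 both mutant libraries of PPM1D lay above both wild-type ones, with a log2 difference of 0.27 (95% interval 0.03 to 0.52) and all 5 sgRNAs on the same side. The edgeR adjusted p of that difference was 0.352 (unadjusted 0.029), and at day 0 the lines differed by 0.16 (-0.08 to 0.40). How many of all genes showed these day 9 patterns was not counted.

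USP7, the deubiquitinase that removes ubiquitin from both MDM2 and p53, had 45.1 and 48.5 CPM at wild-type day 0 and 48.6 and 49.8 CPM at wild-type day 9. In the mutant line USP7 had 44.1 and 47.0 CPM at day 0 and 40.2 and 49.3 CPM at day 9. The wild-type days did not overlap by a margin of 0.1 CPM, while the mutant day 9 libraries spanned both day 0 libraries. The share of all genes with such a wild-type separation was not counted. The log2 change was 0.07 (95% interval -0.15 to 0.30) in wild-type and -0.02 (-0.24 to 0.20) in mutant cells, with edgeR adjusted p-values of 0.796 and 0.962.

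CDKN1A encodes p21, the cyclin-dependent kinase inhibitor through which p53 arrests cells before DNA replication. It had 49.2 and 38.8 CPM at wild-type day 0 and 47.4 and 45.8 CPM at wild-type day 9. In the mutant line CDKN1A had 47.4 and 46.5 CPM at day 0 and 47.9 and 49.7 CPM at day 9. The wild-type days overlapped and the mutant days were 0.6 CPM apart at their nearest, a separation whose share over all genes was not counted. Its log2 change was 0.08 (95% interval -0.15 to 0.31) in wild-type and 0.06 (-0.17 to 0.28) in mutant cells, with edgeR adjusted p-values of 0.771 and 0.874. The upper bounds correspond to 1.24-fold and 1.22-fold.

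TP53BP1 and USP28 lie on the arm that carries centrosome loss and prolonged mitosis to p53. 53BP1, the product of TP53BP1, also steers the repair of double-strand breaks. TP53BP1 had 50.8 and 46.9 CPM at wild-type day 0 and 48.4 and 52.6 CPM at wild-type day 9. In the mutant line it had 46.9 and 50.0 CPM at day 0 and 39.8 and 41.7 CPM at day 9. The wild-type days overlapped, and both mutant day 9 libraries were the lowest of the 8, below both mutant day 0 libraries, as were 24.2% of all genes in mutant cells. The log2 change of TP53BP1 was 0.05 (95% interval -0.17 to 0.26) in wild-type cells and -0.25 (-0.46 to -0.04) in mutant cells. The edgeR adjusted p in mutant cells was 0.179 (unadjusted 0.0236), and with DESeq2 the same change of -0.25 had an adjusted p of 0.0465. Of its 5 sgRNAs, 4 were lower at day 9 in mutant cells, and leaving out each in turn kept the change between -0.31 and -0.20.

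The difference between the lines was largest in size for TP53BP1, at -0.30 (95% interval -0.60 to 0.01), and it did not pass with edgeR (adjusted p = 0.895) or DESeq2 (adjusted p = 0.384). Compared at day 9 alone, the mutant line was lower by a log2 difference of -0.31 (-0.52 to -0.09), with an adjusted p of 0.224 in edgeR and 0.0286 in DESeq2. The sgRNAs of the second TP53BP1 promoter, 5 with enough counts, changed by 0.10 (95% interval -0.10 to 0.30) in wild-type and -0.05 (-0.25 to 0.15) in mutant cells. The second promoter thus gave no call for TP53BP1, with edgeR adjusted p-values of 0.668 and 0.869. Its levels were 46.8 and 51.4 CPM at wild-type day 0, 52.5 and 52.6 at wild-type day 9, 48.5 and 52.6 at mutant day 0, and 47.5 and 49.8 at mutant day 9. Both wild-type day 9 libraries lay above both wild-type day 0 and both mutant day 9 libraries, while the mutant days overlapped. How many genes or second-promoter sets showed such separations was not counted. With the sgRNAs of both promoters pooled, the mutant change of TP53BP1 was -0.14 (edgeR adjusted p = 0.301).

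USP28, the deubiquitinase that joins 53BP1 and p53 in that arm, had 53.6 and 53.9 CPM at wild-type day 0 and 48.8 and 54.3 CPM at wild-type day 9. In the mutant line USP28 had 58.6 and 50.7 CPM at day 0 and 59.85 and 57.0 CPM at day 9. The days overlapped in each line. Its log2 change was -0.06 (95% interval -0.27 to 0.15) in wild-type and 0.10 (-0.11 to 0.30) in mutant cells, with edgeR adjusted p-values of 0.826 and 0.730. Neither TP53BP1 nor USP28 passed edgeR's threshold, and in mutant cells their changes had opposite signs.

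**Figure D2:**
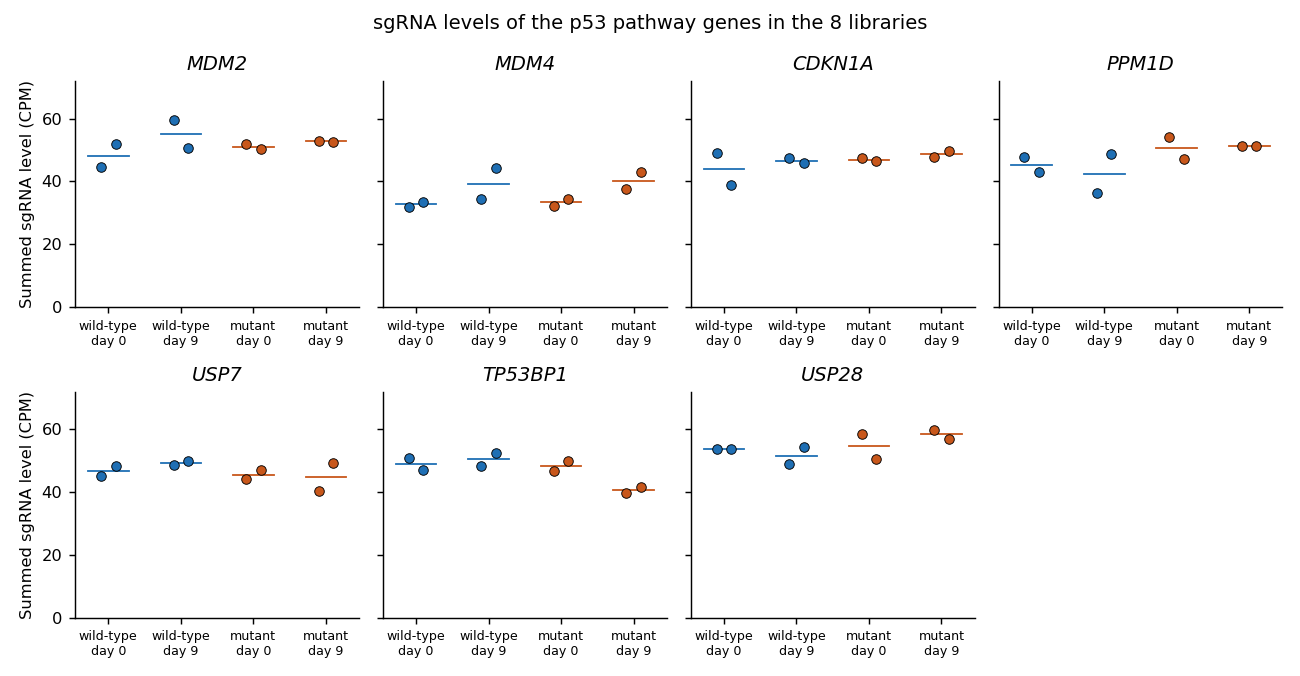
Summed sgRNA level of each of the 7 genes in CPM (y axis, from 0) for wild-type (blue) and mutant (orange) cells at day 0 and day 9. Each point is 1 library and each bar the mean of 2. MDM4 is higher at day 9 in all libraries of both lines, and TP53BP1 is lowest in the mutant day 9 libraries, at 39.8 and 41.7 CPM.

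The lines were also compared with each other. In the difference of changes, mutant minus wild-type, edgeR called 0.0159% of all genes and 0 of the 7, and 0 of the 7 had an unadjusted p under 0.05, against 5.57% of all genes. DESeq2 called 47 of all genes and also 0 of the 7, with 1 at an unadjusted p under 0.05, TP53BP1. The differences ran from -0.30 for TP53BP1 to 0.16 for USP28, with MDM2 at -0.15 (95% interval -0.45 to 0.16), MDM4 at 0.01 (-0.36 to 0.38) and PPM1D at 0.12 (-0.23 to 0.46). At day 9, edgeR called 0.222% of all genes and 0 of the 7, with PPM1D and TP53BP1 at an unadjusted p under 0.05, and DESeq2 called 1, TP53BP1. How many of all genes DESeq2 called at day 9, or had an unadjusted p under 0.05 there, was not counted. At day 0, edgeR called 0% of all genes and 0 of the 7, and neither edgeR nor DESeq2 gave any of the 7 an unadjusted p under 0.05. The intervals of the 7 genes at day 0 ran from -0.26 to 0.40. The difference shares the day 0 and day 9 libraries with the changes of each line, so these comparisons are not separate evidence.

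Single sgRNAs showed how far the 5 sgRNAs of a gene moved together. The 1894 non-targeting control sgRNAs, which have no target in the genome, had a median log2 change of 0.05 in wild-type cells, with 2.5th and 97.5th percentiles of -0.71 and 0.63. In mutant cells the median was 0.04 and the percentiles -0.68 and 0.61. Of the 35 sgRNAs of the 7 genes, 1 lay below and 2 above that range in wild-type cells, and 2 below and 0 above in mutant cells. The other sgRNAs of the 7 genes moved within the range of sgRNAs with no target. The SD of all 35 was 0.375 against 0.368 for the controls in wild-type cells and 0.330 against 0.352 in mutant cells. The number higher at day 9 was 23 of 35 in wild-type and 24 of 35 in mutant cells. With control medians of 0.05 and 0.04, most control sgRNAs were higher at day 9 as well, and their exact share was not counted.

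**Figure D3:**
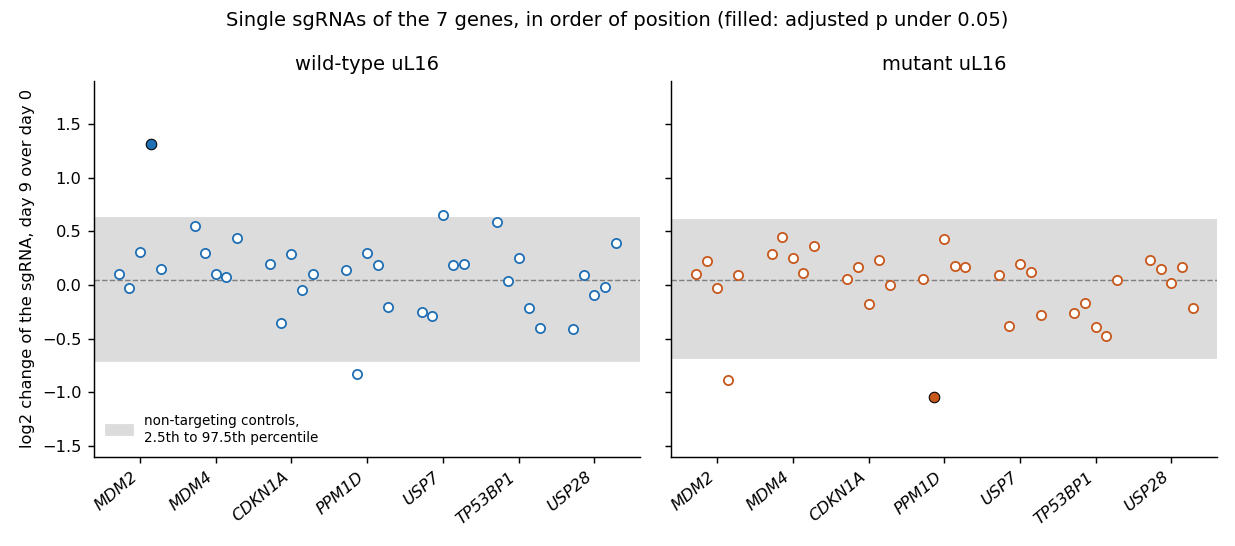
Log2 change of each of the 35 sgRNAs from day 0 to day 9 (y axis) in wild-type (left) and mutant (right) cells, in order of position within each gene. The grey band runs from the 2.5th to the 97.5th percentile of 1894 control sgRNAs, the dashed line is their median, and filled points have an edgeR adjusted p under 0.05. An MDM2 sgRNA stands at 1.31 in the left panel and a PPM1D sgRNA at -1.04 in the right.

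In the test of single sgRNAs, edgeR called 5.75% of all sgRNAs of primary promoters in wild-type and 5.51% in mutant cells, and 1 of the 35 in each line. In wild-type cells the sgRNA called was MDM2_+_69202350. It had 2.22 and 3.31 CPM at wild-type day 0 and 8.02 and 5.68 CPM at wild-type day 9. At mutant day 0 it had 5.32 and 3.83 CPM, and at mutant day 9 it had 2.97 and 2.03 CPM. Its level thus rose in wild-type cells, and in mutant cells both day 9 libraries lay below both day 0 libraries. The log2 changes were 1.31 (95% interval 0.56 to 2.06, edgeR adjusted p = 0.027) and -0.88 (-1.63 to -0.14, adjusted p = 0.269). The difference between the lines was -2.19 (-3.25 to -1.14), with an unadjusted p of 0.000227 and an adjusted p of 0.900. No sgRNA of any primary promoter was called by edgeR in the difference (0% of 95977), while DESeq2 gave this one an adjusted p of 0.0117.

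The next MDM2 sgRNA, MDM2_+_69202361, lies 11 bases away on the same strand and changed by 0.15 in wild-type and 0.09 in mutant cells. Without MDM2_+_69202350 the change of MDM2 was 0.08 in wild-type and 0.12 in mutant cells, and the difference between the lines went from -0.15 to 0.04. Without the most abundant sgRNA, MDM2_-_69202029, which gave 20.5 to 27.5 CPM per library, the change was 0.42 (adjusted p = 0.087) in wild-type and -0.13 in mutant cells. The sign of the MDM2 difference and of its mutant change therefore rests on single sgRNAs. The call of MDM2_+_69202350 in wild-type cells was lost without wild-type day 0 replicate 1 (1.05, adjusted p = 0.404) or 2 (1.63, 0.0704), without wild-type day 9 replicate 1 (1.04, 0.170), and also without replicate 1 of mutant day 0 (1.31, 0.0572).

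In mutant cells the sgRNA called was PPM1D_-_58677985, with 11.2 and 9.79 CPM at day 0 and 5.62 and 4.58 CPM at day 9. At wild-type day 0 it had 7.91 and 7.96 CPM, and at wild-type day 9 it had 3.88 and 5.04 CPM. It was lower at day 9 in all libraries of both lines. The log2 changes were -0.83 (95% interval -1.37 to -0.29, edgeR adjusted p = 0.0681) in wild-type and -1.04 (-1.58 to -0.51, adjusted p = 0.0111) in mutant cells. PPM1D_+_58677989, named 4 bases away on the other strand, changed by 0.30 and 0.42, the opposite sign in each line. The mutant call was lost without mutant day 0 replicate 1 (-0.95, adjusted p = 0.240) or 2 (-1.14, 0.0716), and also without replicate 2 of mutant day 9 (-0.90, 0.127).

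Close neighbours also differed in other genes without a call. In wild-type cells CDKN1A_+_36646528 changed by -0.35 and CDKN1A_-_36646538, 10 bases on, by 0.29, and in mutant cells by 0.17 and -0.18. In wild-type cells TP53BP1_+_43785295 and TP53BP1_+_43785299, 4 bases apart, changed by 0.25 and -0.22, and in mutant cells by -0.39 and -0.48. USP7_+_9057355 and USP7_-_9057365, 10 bases apart, changed by -0.25 and -0.29 in wild-type cells, while the next, 326 bases on, changed by 0.65. The MDM4 sgRNAs are the exception in sign, since all 5 lie within 118 bases and all were above 0 in both lines. These neighbours were named after their values were seen.

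The lists around the 7 genes, 102 genes in all, held 16 genes lower and 1 higher in each line, and 0 called in the difference. Of all 18903 genes, 1644 were lower and 164 higher in wild-type cells, and 1612 lower and 133 higher in mutant cells. The lists were chosen with earlier results of these data known, so their counts are descriptive. The sgRNAs of several kinases and acetyltransferases upstream of p53 were lost. Of 10 kinases and acetyltransferases that activate p53, 4 fell in both lines: ATR, CHEK1, EP300 and KAT8. Of the 5 sgRNAs of each, in that order, 5, 4, 4 and 3 were lower in wild-type cells and 5, 5, 5 and 3 in mutant cells. ATR, the kinase that answers stalled replication forks, fell by 1.79 on the log2 scale (SE 0.125) in wild-type and by 1.31 (SE 0.121) in mutant cells. CHEK1, the kinase that ATR activates, fell by 0.95 and 0.99 on the log2 scale. ATM and CHEK2, the kinases of the double-strand break branch, did not pass, with changes of 0.03 and -0.14 in wild-type cells. The list's median was -0.20 in wild-type and -0.14 in mutant cells, against 0.01 over all genes.

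The genes of the nucleolar route from ribosome assembly to p53 fell in larger number. Of 9 genes, 6 were lower in both lines: RPL5, RPL11, RRS1, RPF2, HEATR3 and MYBBP1A, with list medians of -0.55 in wild-type and -0.76 in mutant cells. Of all 18903 genes, 1644 were lower in wild-type and 1612 in mutant cells. MYBBP1A, a nucleolar protein of ribosome biogenesis, fell by 2.90 on the log2 scale (SE 0.222) in wild-type and by 2.69 (SE 0.215) in mutant cells. RPL5 fell by 1.56 (SE 0.190) and by 0.97 (SE 0.184), and RPL11 by 0.55 (SE 0.139) and by 0.61 (SE 0.138). These 2 ribosomal proteins bind MDM2 together with the 5S rRNA. CDKN2A, whose ARF product also binds MDM2, changed by -0.03 and 0.05, and K562 is known to have lost that gene. MDM2 and MDM4 lie on the other side of this step and were above 0 in both lines, without a call.

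The 3 lists of genes that p53 switches on held 1 called gene in each line, where 9.56% and 9.23% of all genes were called and 19.5% and 17.3% had an unadjusted p under 0.05. Of 12 target genes of arrest and feedback, 0 passed with edgeR in either line, with 2 and 1 at an unadjusted p under 0.05 and medians of 0.01 in each line. Of 7 targets of repair and metabolism, 0 passed, with 1 at an unadjusted p under 0.05 in each line. Of 11 apoptosis targets, APAF1, the core of the apoptosome, rose by 0.38 (SE 0.104, edgeR adjusted p = 0.0133) in wild-type cells, with 5 of 5 sgRNAs higher. The nuclease gene AEN fell by 0.32 on the log2 scale (SE 0.0973, adjusted p = 0.0312) in mutant cells. BAX and BBC3, which open the mitochondrial route to apoptosis, were between -0.06 and 0.01 in both lines. The APAF1 call was lost without wild-type day 0 replicate 2 (0.26, adjusted p = 0.340) or wild-type day 9 replicate 2 (0.35, 0.0561). AEN stayed at -0.32 without either mutant day 0 library (adjusted p = 0.230 and 0.217) and without either wild-type day 0 library (0.0517 and 0.0533), and the call was lost each time. It was also lost without mutant day 9 replicate 1 (-0.34, adjusted p = 0.0637) or 2 (-0.30, 0.135).

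Downstream of p21, the cyclins, cyclin-dependent kinases and RB-DREAM genes held 2 called of 23 in wild-type and 4 of 23 in mutant cells, where 9.56% and 9.23% of all genes were called. CDK1, the mitotic kinase, fell by 0.85 (SE 0.130) in wild-type and by 1.06 (SE 0.130) in mutant cells, and CCNA2, its cyclin A partner, fell by 0.44 and 0.49, all on the log2 scale. In wild-type cells 3 of 5 CDK1 and 3 of 5 CCNA2 sgRNAs were lower, and in mutant cells 5 of 5 and 4 of 5. LIN52, a subunit shared by DREAM and MMB, fell by 0.80 (SE 0.190) in mutant cells. E2F3, a transcription factor of S phase entry, rose by 0.31 (SE 0.0965, edgeR adjusted p = 0.0382) in mutant cells, and 9 of 20 alternative settings ended that call. In all 20 settings the E2F3 change lay between 0.27 and 0.34. It stayed at 0.31 without either wild-type day 0 library (adjusted p = 0.0593 and 0.0605), was 0.28 and 0.33 without either mutant day 0 library (0.322 and 0.169), and was 0.30 and 0.32 without either mutant day 9 library (0.121 and 0.101). CDK2, CDK4 and CDK6, the kinases that p21 or its relatives hold back, did not pass, with changes of -0.26, 0.07 and -0.15 in wild-type cells. RB1, the brake on E2F, was at -0.29 (adjusted p = 0.0995) in wild-type and -0.03 in mutant cells.

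Among 9 other ligases and repressors of p53, 3 fell in wild-type cells and 0 in mutant cells, where 5 had an unadjusted p under 0.05. Of all genes, 9.56% were called in wild-type and 9.23% in mutant cells, and 17.3% had an unadjusted p under 0.05 in mutant cells. DAXX, a histone chaperone that bridges MDM2 and USP7, fell by 0.42 on the log2 scale (SE 0.113, edgeR adjusted p = 0.0106) in wild-type cells and was at -0.34 (adjusted p = 0.0572) in mutant cells. RCHY1 and TRIM28 fell by 0.36 and 0.32 on the log2 scale in wild-type cells. The difference between the lines did not pass for any of these 3. In the double-strand break response around 53BP1, RNF8 was the only 1 of 11 called, with a fall of 0.34 on the log2 scale (SE 0.103, adjusted p = 0.0295) in mutant cells. RNF8 is the ubiquitin ligase that helps bring 53BP1 to breaks, and RIF1, which acts with 53BP1 there, was at -0.29 in both lines without a call. Of 8 partners of USP7, PCGF1, a Polycomb subunit, fell by 0.38 (SE 0.103) in wild-type and by 0.42 (SE 0.102) in mutant cells, while DNMT1 and UHRF1 did not pass.

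Several of these smaller calls were lost with a library or sgRNA left out, some of them with the size of the change kept. DAXX lost its call without wild-type day 0 replicate 2 (-0.33, adjusted p = 0.248) or wild-type day 9 replicate 1 (-0.37, 0.0668). With all promoters pooled, DAXX was at -0.20 (adjusted p = 0.0884). RNF8 stayed at -0.34 while its call was lost without mutant day 0 replicate 1 (adjusted p = 0.213) or 2 (0.215) or without wild-type day 0 replicate 1 (0.0525) or 2 (0.0526). Without mutant day 9 replicate 2 RNF8 was at -0.24 (adjusted p = 0.280), with a minimum mean count of 100 at -0.30 (0.0709), and by limma on mean log2 CPM at -0.88 (0.00545). PCGF1 lost its wild-type call without wild-type day 0 replicate 2 (-0.33, adjusted p = 0.172) or wild-type day 9 replicate 1 (-0.29, 0.118). It lost its mutant call without mutant day 0 replicate 1 (-0.35, adjusted p = 0.161) or mutant day 9 replicate 2 (-0.34, 0.0853). Without its most abundant sgRNA, PCGF1 was at -0.30 (adjusted p = 0.155) in wild-type and -0.19 (0.498) in mutant cells, and AEN at -0.28 (0.199) in mutant cells. The calls of ATR, MYBBP1A and CDK1 held in both lines without each library in turn, and the mutant change of ATR was -2.30 without its most abundant sgRNA. Of the p53 relatives TP63 and TP73, 0 of 2 passed with edgeR in either line, with TP73 nearest at 0.31 (adjusted p = 0.0516) in wild-type and 0.02 in mutant cells.

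**Figure D4:**
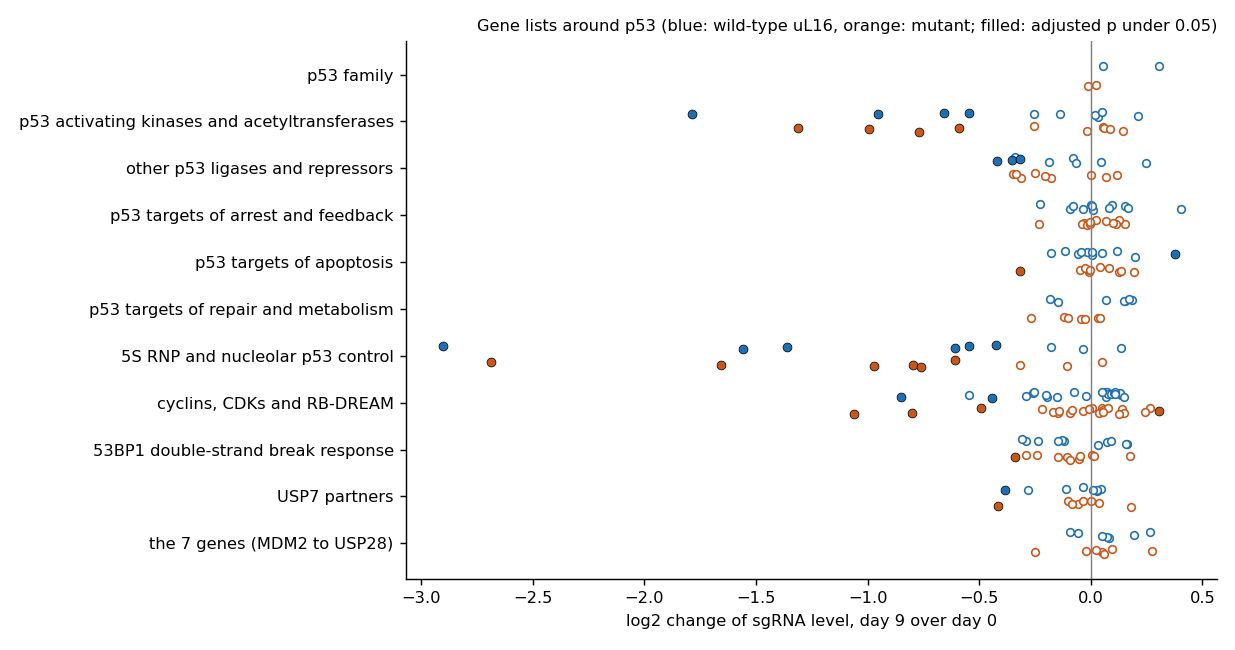
Log2 change from day 0 to day 9 (x axis) of every tested gene in the 10 lists and of the 7 genes, in wild-type (blue) and mutant (orange) cells. Filled points have an edgeR adjusted p under 0.05. The 5S RNP and nucleolar genes and the activating kinases reach -2.90 and -1.79, while the 7 genes lie between -0.25 and 0.28.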

How the data were processed

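The authors deposited raw read counts per sgRNA, 1 column per library. Per the file headers, bases 1 to 39 of each read were matched forward to a CRISPRi v2 human library. The submitters' processing notes name hg38, and no source used here gives the program that counted. Groups and replicates came from the labels, which state 3 days of puromycin selection. The end of the screen is day 9 in the labels and 10 cell doublings in the design text.

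sgRNAs with a mean count of at least 20 were kept. Counts of primary-promoter sgRNAs were summed per gene (at least 3 sgRNAs), scaled by TMM and fitted in R 4.3.3 with edgeR 4.0.16 (quasi-likelihood), with 1 mean per group over 8 libraries and 4 residual degrees of freedom. P-values were adjusted by Benjamini-Hochberg over all genes, or all sgRNAs, with a threshold of 0.05. PCR reads carry no molecular identifiers and are not independent molecules.

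The members and lists were chosen with earlier results of these data known. Genes named are the 7 and, per list and line, the largest called fall and rise. Others named were chosen after their values were seen. Alternatives were control scaling, RLE, DESeq2 1.42.0, other filters, limma 3.58.1 on mean log2 CPM (prior count 2), fewer or more sgRNAs, fewer libraries, replicate blocks and, added after seeing the data, leaving out each sgRNA of the 7 genes.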

Additional observations from a re-analysis of the deposited data

How the results depend on the processing

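The alternatives were run for the 7 genes and their 2 called sgRNAs and for ATR, DAXX, APAF1, MYBBP1A, CDK1, PCGF1, AEN, E2F3 and RNF8, and not for the other called genes named. No called change of these reversed its direction, and the calls of ATR, MYBBP1A and CDK1 held under all of them. The count of called p53 pathway genes was 0 in each line under all alternatives but 2. DESeq2 called 1 in mutant cells and 1 at day 9, TP53BP1 both times. With each library left out in turn, the count ranged from 0 to 1 in wild-type cells (MDM4, without wild-type day 9 replicate 1). In the difference and at day 0 it was 0 under all alternatives run. Called sgRNAs of the 7 genes in wild-type cells numbered 2 with control scaling and 2 with DESeq2, and 0 to 2 with a library left out. In mutant cells they numbered 0 to 1 with a library left out, and in the difference DESeq2 called 1. Called genes in the surrounding lists ranged from 10 to 22 in wild-type and from 11 to 20 in mutant cells with a library left out.

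Over all genes, DESeq2 called 2763 (wild-type), 2395 (mutant) and 47 (difference), against 1808, 1745 and 3 with edgeR. Deviations of same-numbered libraries correlated at 0.023 in wild-type and 0.047 in mutant cells. Whether the replicate numbers mark paired libraries cannot be told from this, since counting noise can hide a shared effect. With the replicate number as a block, 0 of the 7 genes were called in each line and in the difference, and the genes called in the difference over the whole table went from 3 to 5 (9 with the block within each line). APAF1 had no value without sgRNAs near another gene, since too few were left. With 2 libraries per group, the called falls nearest 0 were -0.25 in wild-type and -0.21 in mutant cells and the called rises nearest 0 were 0.17 and 0.14. The intervals of the 7 genes do not show that they had no effect.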
